A study of Mus musculus with 6 samples.

Results

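The 5 genes described here, Muc1, Muc2, Muc4, Muc13 and Muc20, encode mucins of the intestinal surface. They were taken by gene symbol from 19938 genes with a probe set that carries exactly 1 symbol, and each of the 5 has 1 such probe set. Transcripts of mouse ileum, where the small intestine ends, were measured on Affymetrix Mouse Gene 1.0 ST arrays, with 1 array per mouse. The 3 control mice carried Villin-CreERT2, a tamoxifen-inducible Cre recombinase under the promoter of Villin, a gene of intestinal epithelial cells. The other 3 mice, labelled GATA6 KO, carried Villin-CreERT2 and were crossed to GATA6 flox/flox, so that the Cre could remove the transcription factor Gata6 from the epithelium. Both groups received tamoxifen (100 mg/ml) on 5 days when 6 to 8 weeks old and were fed chow. Tissue was taken 28 days later, at 10 to 12 weeks. RNA came from the whole ileal segment, so it also holds RNA from muscle, immune cells and connective tissue, in which Villin-driven Cre is not known to act.

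Mucins are long proteins with stretches rich in serine, threonine and proline, to which enzymes of the Golgi attach dense O-linked sugar chains. The intestine makes them in 2 forms. Gel-forming mucins are packed into granules by goblet cells and released into the lumen, and Muc2 is the main one of the intestine, the backbone of its mucus. Membrane mucins stay anchored in the apical membrane, where they form a glycocalyx; Muc1, Muc4, Muc13 and Muc20 belong to this class. The question addressed was whether the transcripts of these genes, and of the genes that build, sugar and package mucins, differed between the groups.

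Of the 5 mucin genes, Muc2 and Muc4 were higher in the arrays labelled GATA6 KO, and Muc1, Muc13 and Muc20 did not pass the test. Muc4 was 2.53-fold higher and Muc2 1.71-fold higher. The test was limma's, fitted on the log2 values of all genes with Benjamini-Hochberg adjustment, and a gene passed at an adjusted p under 0.05. By the same rule 8.24% of all genes tested were called; 4.99% of all genes tested were higher and 3.25% were lower. Centring each array on its median moved that split from 995 higher and 648 lower genes to 1562 and 565.

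The start regions of these genes are shown for the pair that rose, because the factor named in the mouse labels recognises a short DNA word. The words searched on both strands, of the kind GATA factors bind, were AGATAA and its variant AGATAG, along with TGATAA and its variant TGATAG. The 250 bases before the annotated start of each gene were taken from RefSeq (build GRCm38.p6), with all 5 genes matched and 2 starts listed for Muc13. Lines give each sequence 5′ to 3′ on the gene's strand, with these words in capitals. The Muc2 region is chr7:141690090-141690339 on the plus strand, and the Muc4 region is chr16:32735636-32735885, also on the plus strand.
Muc2: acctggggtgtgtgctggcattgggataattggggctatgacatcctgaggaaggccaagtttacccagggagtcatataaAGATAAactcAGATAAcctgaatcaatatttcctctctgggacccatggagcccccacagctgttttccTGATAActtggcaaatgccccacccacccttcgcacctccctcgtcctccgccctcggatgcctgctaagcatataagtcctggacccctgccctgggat
Muc4: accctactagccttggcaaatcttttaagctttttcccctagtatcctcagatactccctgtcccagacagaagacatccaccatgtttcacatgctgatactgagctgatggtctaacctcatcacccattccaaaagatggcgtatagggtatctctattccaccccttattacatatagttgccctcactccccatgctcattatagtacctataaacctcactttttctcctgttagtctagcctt

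The Muc2 window held 3 GATA words: AGATAA with its first base 169 and 159 bases before the start, and TGATAA with its first base 100 bases before it. The Muc4 window held none. Among 32851 start regions of the same length in the RefSeq table, 26.5% held at least 1 such word and 1.35% held 3 or more. The windows of Muc1 and Muc20 and of the first Muc13 start held 0 words, and that of the second Muc13 start held 1 (TGATAG on the minus strand). A word of the kind bound by the goblet cell factor Atoh1, CAGCTG or CAGATG, stood in the windows of Muc2, Muc1 and the first Muc13 start, once in each, and in 25.5% of all windows. A forkhead word, TGTTTAC or TGTTTGC, stood in the Muc20 window and in 7.29% of all windows. Muc2 and Muc4 rose with windows that held 3 and 0 GATA words. These are matches of letters; binding was not measured.

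Before the mucins, the targeted gene was read in each array. Gata6 gave a log2 signal of 6.31, 6.33 and 6.50 in the controls, and the KO-labelled arrays gave 6.93, 6.81 and 6.86. It was thus higher, not lower, in the arrays with the KO label, by 0.49 on the log2 scale (SE 0.08, limma adjusted p = 0.0162). That call was lost without control replicate 1 (0.0501) or GATA6 KO replicates 1, 2 or 3 (0.0584, 0.0573 and 0.0623). The labels do not say whether this probe set covers the floxed part. One outside it checks nothing, and directions are therefore given for the arrays labelled GATA6 KO. Xist, which silences the second X of female cells, was at 2.31 in control replicate 3 and between 7.39 and 7.81 elsewhere. Eif2s3y, on the Y chromosome, was at 5.30 in that array and between 0.27 and 0.61 elsewhere. Car1, a carbonic anhydrase of the large bowel, was at 10.96 in control replicate 1. It was at 5.68 and 6.87 in control replicates 2 and 3, and between 12.14 and 12.20 with the KO label. With both of these controls left out, 36 genes were called in place of 1643. Of the genes named here, A4gnt, St3gal4, Retnlb, Reg4, Fut2, Defa39 and Tlcd3a passed without both, and the calls of Muc2, Muc4 and the other named genes did not hold. The median log2 signal ran from 3.33 to 3.44 over the 6 arrays, and the number of arrays limits the precision.

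**Figure D1:**
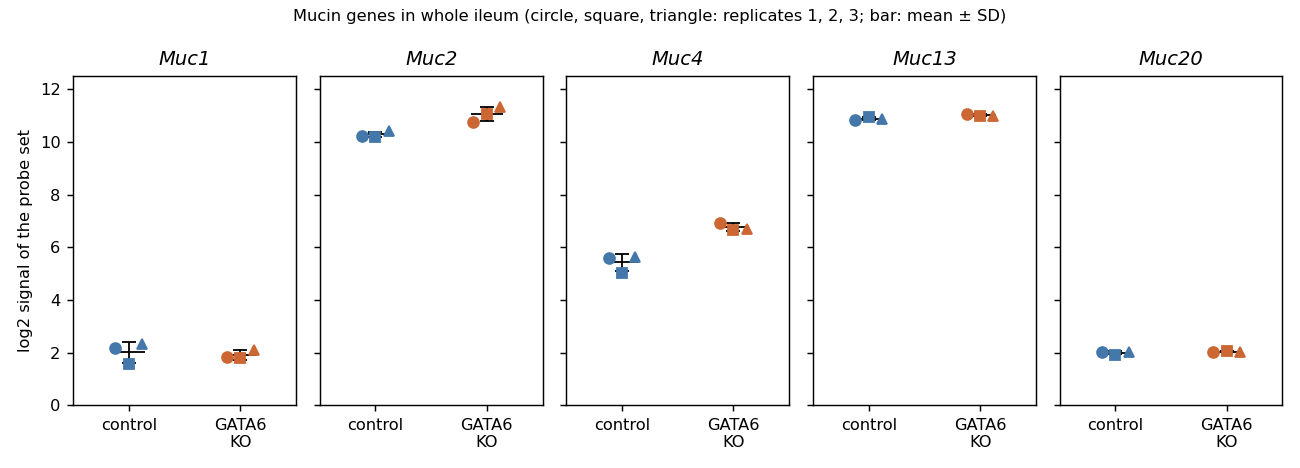
Log2 signal of the 5 mucin probe sets (vertical axis) in each array, by group; circles, squares and triangles are replicates 1, 2 and 3, and bars give the mean ± SD. The groups stand apart for Muc2 and Muc4, stand apart by a narrow gap for Muc13, and overlap for Muc1 and Muc20; levels are not comparable between probe sets.

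Muc2, the gel-forming mucin of goblet cells (probe set 10558992, chromosome 7), read 10.24, 10.19 and 10.41 in the controls. In the arrays labelled GATA6 KO it read 10.77, 11.06 and 11.34. Each KO-labelled array lay above each control, and the KO-labelled arrays spread more widely, with an SD of 0.28 against 0.11 (n = 3). Muc2 rose by 0.78 on the log2 scale (SE 0.15, 95% confidence interval 0.43 to 1.12), which is 1.71-fold with an interval of 1.35 to 2.18. The limma adjusted p was 0.0225. Genes called with a change of this size or more, in either direction, were 2.73% of all genes. The call was lost in 5 of the 6 fits that left out 1 array: the adjusted p was 0.0740, 0.0629 and 0.0624 without control replicates 1, 2 and 3. It was 0.0195, 0.0952 and 0.0557 without GATA6 KO replicates 1, 2 and 3. The change itself lay between 0.64 and 0.92 in these 6 fits, and was 0.86 (adjusted p = 0.236) with control replicates 1 and 3 both left out. In whole tissue, more goblet cells and more Muc2 RNA per goblet cell cannot be told apart.

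Muc4, a membrane mucin known as a partner of the receptor tyrosine kinase Erbb2 (probe set 10435112, chromosome 16), read 5.60, 5.04 and 5.63 in the controls. Its KO-labelled values were 6.94, 6.65 and 6.71. The gap between the groups, from 5.63 to 6.65, was wider than the spread within either, with SDs of 0.33 and 0.15 (n = 3). Control replicate 2 was the lowest array. Muc4 rose by 1.34 on the log2 scale (SE 0.17, interval 0.94 to 1.74), or 2.53-fold with an interval of 1.92 to 3.34, at a limma adjusted p of 0.00527. Genes called higher by that much or more were 0.451% of all genes tested. Leaving out any 1 array kept the call, with adjusted p from 0.00829 to 0.0306 and changes from 1.15 to 1.44. With control replicates 1 and 3 both left out, which leaves the control that read lowest, the change was 1.72 and the adjusted p 0.07.

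Muc13, a membrane mucin of the apical surface of enterocytes and goblet cells (probe set 10435288, chromosome 16), gave a similar signal on all 6 arrays. It read 10.83, 10.94 and 10.85 in the controls, against 11.05, 10.99 and 10.98 in the KO-labelled arrays. The groups did not overlap, as was the case for 29.3% of all genes tested, but the gap was narrow. The difference was 0.13 on the log2 scale (SE 0.07) and did not pass (limma adjusted p = 0.310). Its 95% confidence interval, -0.04 to 0.30, reaches a 1.23-fold increase at its upper end.

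Muc1, an apical mucin of many glandular epithelia (probe set 10493474, chromosome 3), read 2.17, 1.56 and 2.31 in the controls, against 1.83, 1.78 and 2.11 in the KO-labelled arrays. All 6 values lay below the median signal of their arrays, and the groups overlapped. The difference was -0.11 (SE 0.20, limma adjusted p = 0.780). It was 0.039 without control replicate 3 and 0.343 without control replicates 1 and 3, so no direction can be given for Muc1.

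Muc20, a membrane mucin known as a partner of the hepatocyte growth factor receptor Met (probe set 10439087, chromosome 16), read 2.04, 1.93 and 2.03 in the controls. In the KO-labelled arrays it read 2.03, 2.06 and 2.03. These 6 values too lay below the array medians, within a narrow span shared by both groups. The difference was 0.04 (SE 0.07, interval -0.13 to 0.21, limma adjusted p = 0.778). For Muc1 and Muc20 a change at such a dim signal may go undetected.

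The members were also compared with one another within each array, which removes a constant offset between arrays but not a difference in their spread. The upper quartile of log2 signal was 5.35 in each control and between 5.40 and 5.43 with the KO label. The lower quartile lay between 1.77 and 1.80 in the controls and between 1.67 and 1.73 with the KO label. Of the 10 pairs, 7 had log2 differences that did not overlap between the groups. These were the pairs that set Muc2 or Muc4 against each other or against Muc1, Muc13 or Muc20. All hold a gene that passed above, so they are not 7 separate observations. Among single genes 29.3% did not overlap, and the share over all pairs of genes was not computed. The exact two-sided permutation test gave p = 0.10 for each of the 7 pairs, which is the smallest that 3 arrays against 3 allow. It gave 0.143 after Benjamini-Hochberg adjustment over the 10 pairs. No pair could therefore pass. Muc4 minus Muc13 moved from -5.45 ± 0.39 in the controls to -4.24 ± 0.12 in the KO-labelled arrays (SD, n = 3). For Muc2 minus Muc13 the values were -0.59 ± 0.15 and 0.05 ± 0.32 (SD, n = 3). Muc2 minus Muc4 went from 4.85 ± 0.27 to 4.29 ± 0.41 (SD, n = 3).

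The 12 other measured genes of mucin type gave no call in either direction, and 1 of them, Muc5ac, had an unadjusted p under 0.05 (0.034), as did 24.7% of all genes tested. Their median log2 fold change was 0.03, against -0.004 over all genes. Muc3, a large membrane mucin of the enterocyte brush border, read 10.63, 10.46 and 10.64 in the controls, against 10.54, 10.63 and 10.69 in the KO-labelled arrays, a difference of 0.04 (SE 0.08, limma adjusted p = 0.792). Without control replicate 2 that difference was -0.012. Cdhr5, a mucin-like protocadherin that joins microvilli, differed by -0.06 (SE 0.09), and the sialomucin Cd164 by 0.06 (SE 0.08). Neither passed (limma adjusted p = 0.730 and 0.674).

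The gel-forming mucins of stomach and airway, Muc5ac, Muc5b and Muc6, lay below the array medians on all 6 arrays, with differences of -0.20, -0.21 and -0.14 (SE 0.08, 0.11 and 0.11). The same held for Muc15, Muc16, Muc19 and Mucl2, whose differences were 0.05, 0.16, 0.03 and 0.02. Podxl and Emcn, sialomucins known from blood vessel lining, differed by 0.08 (SE 0.10) and 0.04 (SE 0.10). For these 9 genes the limma adjusted p was between 0.166 and 0.941.

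**Figure D2:**
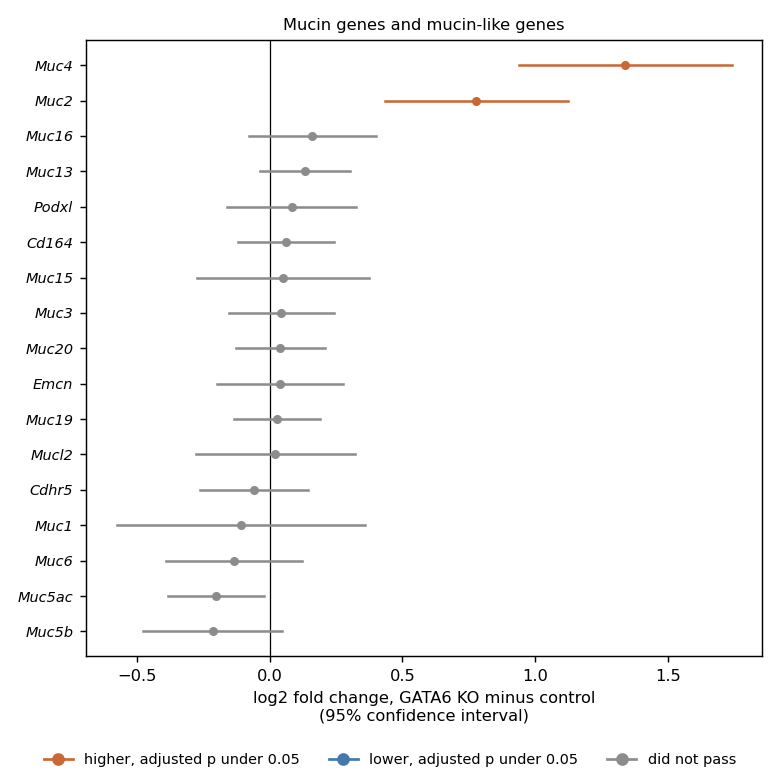
Log2 fold change (GATA6 KO minus control, horizontal axis) with its 95% confidence interval for the 5 mucin genes and 12 other mucin or mucin-like genes. Muc4 and Muc2 are the 2 genes in orange, at 1.34 and 0.78, and the other 15 genes are grey because they did not pass.

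Neighbouring genes were read next. Muc2 lies in a cluster of gel-forming mucin genes on chromosome 7, where its nearest measured neighbours are Muc6 on the one side and Muc5ac and Muc5b on the other; of these 4, Muc2 passed. Muc4 and Muc20 overlap at their ends on opposite strands of chromosome 16. Muc4 rose and Muc20 did not pass, and which of the overlapping bases the probe sets cover was not analysed here. Tnk2 and its antisense RNA Tnk2os, before Muc4, and Rubcn, after Muc20, did not pass, with differences of 0.11, 0.14 and 0.05. In all, 16 genes other than the members were the nearest 2 measured genes on a side of a member, in the RefSeq gene table of GRCm38.p6. Of these, 0 were higher, 14 did not pass and 2 were lower. Over all genes tested 4.99% were higher and 3.25% lower, so few calls would be looked for among 16 genes. The 2 were Mir92b beside Muc1, at -0.39 (SE 0.08), and the unnamed gene model Gm16982 beside Muc2, at -0.35 (SE 0.08) and below the array medians. Gm16982 lost its call without any 1 of the arrays (limma adjusted p from 0.0577 to 0.163), and Mir92b without control replicates 2 or 3 or any 1 of the KO-labelled arrays (0.0525 to 0.0991).

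The genes whose 6 values were most like those of a member were found by the root mean square difference of log2 profiles, each minus its own mean. For Muc4 these were Tlcd3a (0.13), Parm1 (0.14) and Me1 (0.19). Parm1 encodes a mucin-like membrane protein and Me1 the cytosolic malic enzyme. Parm1 read 5.81, 5.58 and 5.74 in the controls, against 7.19, 7.04 and 6.91 in the KO-labelled arrays. For Muc2 they were Auts2 (0.04), Bmp8a (0.08) and the calcium-activated chloride channel Ano1 (0.09). Ano1 read 4.52, 4.53 and 4.55 in the controls, against 5.20, 5.39 and 5.53 in the KO-labelled arrays. For the 3 members that did not pass, the closest genes were likewise ones with adjusted p above the threshold: Col10a1, Tmem192 and Epo for Muc1, Pelp1, Ywhah and Ppp1r21 for Muc13, and Olfr43, Defb6 and Tpm3 for Muc20. Col10a1, Epo, Olfr43 and Defb6 lay below the median on all 6 arrays, as Muc1 and Muc20 did. The calls of Auts2 (0.0571) and Bmp8a (0.0672) were lost without control replicate 1, and that of Me1 (0.0524, limma adjusted p) without control replicate 3. They were also lost without control replicate 2 (Auts2 0.0501, Bmp8a 0.0578), GATA6 KO replicate 1 (Me1 0.0537), 2 (Auts2 0.0684, Bmp8a 0.0939) or 3 (Bmp8a 0.0738, Me1 0.0525). For Muc2 and Muc4, likeness over 6 arrays in 2 groups weighs the difference between the groups most. Muc1 and Muc20 differed little between the groups, and both had their lowest value in control replicate 2.

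Goblet cell granule genes moved in both directions. Of 25 measured genes of goblet cell granules and secretion, 9 rose and 4 fell in the KO-labelled arrays, while 12 did not pass. Over all genes tested 4.99% rose and 3.25% fell. The median log2 fold change was 0.15 in the list and -0.004 over all genes. This list and those below were chosen with earlier results of these data known. Retnlb, an antibacterial goblet cell protein, rose from 5.67 ± 0.97 to 9.06 ± 0.06 (SD, n = 3), and the lectin Reg4 from 8.25 ± 0.82 to 10.87 ± 0.13 (SD, n = 3). Galnt12, which starts O-glycans on mucins, rose by 1.08 (SE 0.07) and the calcium pump Atp2a3 by 0.92 (SE 0.08). The 4 that fell were Itln1 at -2.96 (SE 0.31), Mptx1 at -2.06 (SE 0.26), Zg16 at -1.44 (SE 0.27) and Ang4 at -1.38 (SE 0.27). Itln1 and Ang4 are secreted by Paneth cells too, and both also stand in the Paneth cell list. The limma adjusted p of Zg16, 0.0211, became 0.0549, 0.0626, 0.0879 and 0.0844 without control replicates 1, 2 and 3 and GATA6 KO replicate 2. For Ang4 it was 0.0519 to 0.0926 without any control or without GATA6 KO replicate 2. Kcnma1, among the 9 that rose, has 2 probe sets. It differed by 0.37 with the brighter one and by 0.04 with their mean (limma adjusted p = 0.751). Its call was also lost without any 1 array (0.0568 to 0.119). The list had 7 calls without control replicate 3 or GATA6 KO replicate 2, in place of 13.

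Among the 12 genes of this list that did not pass were Tff3, Clca1, Agr2 and Spink4, which were picked for description after their values were seen. The trefoil peptide Tff3 read 10.77, 10.84 and 11.13 in the controls, against 10.57, 10.73 and 10.91 in the KO-labelled arrays. The mucus metalloprotease Clca1 read 10.71, 11.00 and 11.00 in the controls, against 10.31, 10.44 and 10.75 in the KO-labelled arrays. Tff3 and Clca1 differed by -0.18 (SE 0.13) and -0.40 (SE 0.14), with limma adjusted p of 0.448 and 0.133. Agr2, a disulfide isomerase needed to make Muc2, and Spink4, a goblet cell protease inhibitor, differed by 0.15 (SE 0.08) and 0.11 (SE 0.09), and neither passed (limma adjusted p = 0.311 and 0.522).

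Among transcription factors of the goblet lineage and of the epithelium, 5 of 17 measured rose and 0 fell, while 12 did not pass. The shares over all genes tested were 4.99% higher and 3.25% lower. The median log2 fold change of the list was 0.26. Creb3l1, a membrane-bound factor of secretory cells, read 5.60, 5.69 and 5.49 in the controls, against 6.72, 6.90 and 6.93 in the KO-labelled arrays, an increase of 1.26 (SE 0.09). Foxa1, a forkhead factor of secretory cells, rose by 0.87 (SE 0.13) and Spdef, which drives goblet cell maturation, by 0.61 (SE 0.10). Sox9, a crypt factor needed for Paneth cells, rose by 0.56 (SE 0.09), and the fifth was Creb3l4 at 0.39 (SE 0.09). Atoh1, the factor that commits cells to the secretory lineage, read 7.52, 7.43 and 7.50 in the controls, against 7.74, 7.72 and 7.82 in the KO-labelled arrays. The groups did not overlap, but its difference of 0.28 (SE 0.07) did not pass (limma adjusted p = 0.0617). It did pass with arrays centred on their medians (0.0406), with dim genes removed (0.0405) and with trended, robust moderation (0.0379).

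Creb3l1 alone among these 5 kept its call when any 1 array was left out. The limma adjusted p of Foxa1 was 0.0582 without GATA6 KO replicate 2. For Spdef it was 0.0524 without control replicate 3 and 0.0512 without GATA6 KO replicate 1. Sox9 lost its call without GATA6 KO replicates 1 or 3, and Creb3l4 without any 1 array other than GATA6 KO replicate 1 (0.0725 to 0.128). The list had 3 calls without control replicate 3 or any 1 of the KO-labelled arrays, and 8 with each array centred on its median.

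**Figure D3:**
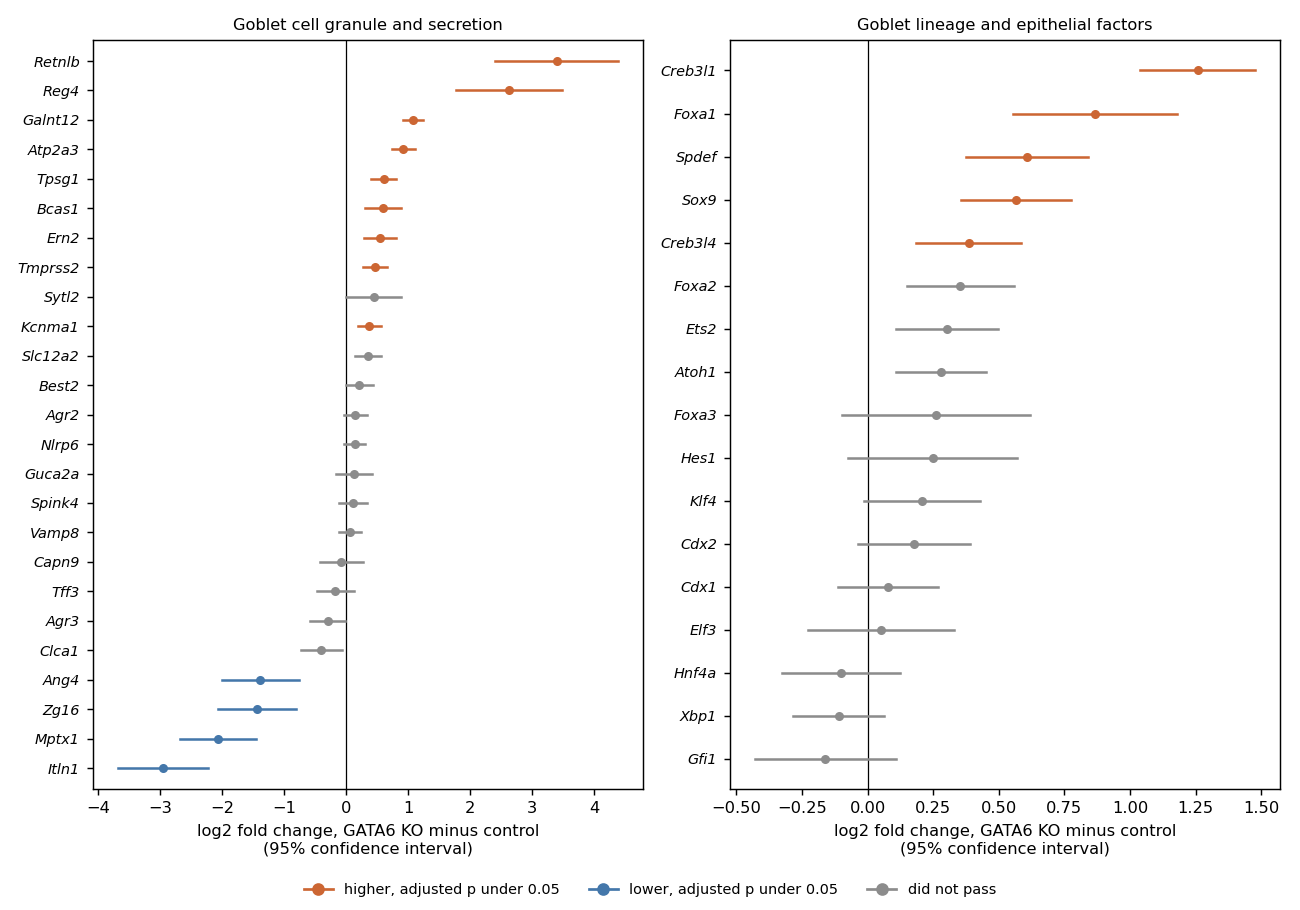
Log2 fold change (GATA6 KO minus control, horizontal axes) with its 95% confidence interval for 25 goblet cell granule and secretion genes on the left and 17 lineage and epithelial transcription factors on the right. Orange genes were higher and blue genes lower at an adjusted p under 0.05: the left list runs from Itln1 at -2.96 to Retnlb at 3.39, while on the right the 5 genes that passed all rose.

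Of 39 measured genes listed for mucin O-glycosylation, not all of them enzymes particular to mucins, 13 rose and 6 fell, while 20 did not pass. Over all genes tested 4.99% rose and 3.25% fell. The median log2 fold change was 0.15 in the list and -0.004 over all genes. Among enzymes that start a chain on serine or threonine, Galnt12 rose by 1.08 and Galnt4 by 0.91 (SE 0.08). B3gnt6, which makes the core 3 structure of intestinal mucins, read 4.14, 3.86 and 4.13 in the controls, against 5.71, 6.20 and 6.24 in the KO-labelled arrays, an increase of 2.01 (SE 0.16). A4gnt, which caps chains of gland mucus with N-acetylglucosamine, rose 6.25-fold, from 4.78 ± 0.07 to 7.43 ± 0.15 (SD, n = 3). B4galnt2, which adds the terminal sugar of an intestinal glycan, rose by 0.84 (SE 0.09).

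In the other direction, St3gal4, which adds sialic acid, read 9.88, 10.14 and 10.09 in the controls, against 8.15, 8.19 and 8.14 in the KO-labelled arrays, and fell by 1.88 (SE 0.09). Gcnt4, a branching enzyme, fell by 1.39 (SE 0.13), and St3gal6 fell by 0.59 (SE 0.08). Limma adjusted p of Galnt12, Galnt4, B3gnt6, A4gnt, B4galnt2, St3gal4, Gcnt4 and St3gal6 stayed under 0.05 when any 1 array was left out. Fut2, which adds fucose to secreted glycans, read 7.12, 5.39 and 6.15 in the controls, against 8.74, 8.55 and 8.52 in the KO-labelled arrays. It rose by 2.38 (SE 0.38), and its limma adjusted p of 0.0125 became 0.0621 when control replicate 3 was left out, and 0.0607 or 0.061 when GATA6 KO replicate 1 or 2 was. C1galt1, which makes the core 1 structure, rose by 0.36 (SE 0.07), a call kept only when control replicate 2 was the array left out (0.0683 to 0.0939 without another).

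St6galnac1, which makes the sialyl-Tn cap of intestinal mucins, stood apart in 1 array: it read 1.15 in control replicate 1, while control replicates 2 and 3 read 5.39 and 6.59 and the KO-labelled arrays between 4.24 and 4.57. Its difference was 0.08 (SE 1.23) with all arrays and -1.53 (SE 0.34, limma adjusted p = 0.0660) without that control. The list had 12, 10 and 12 calls without control replicate 3, GATA6 KO replicate 2 and GATA6 KO replicate 3, in place of 19.

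**Figure D4:**
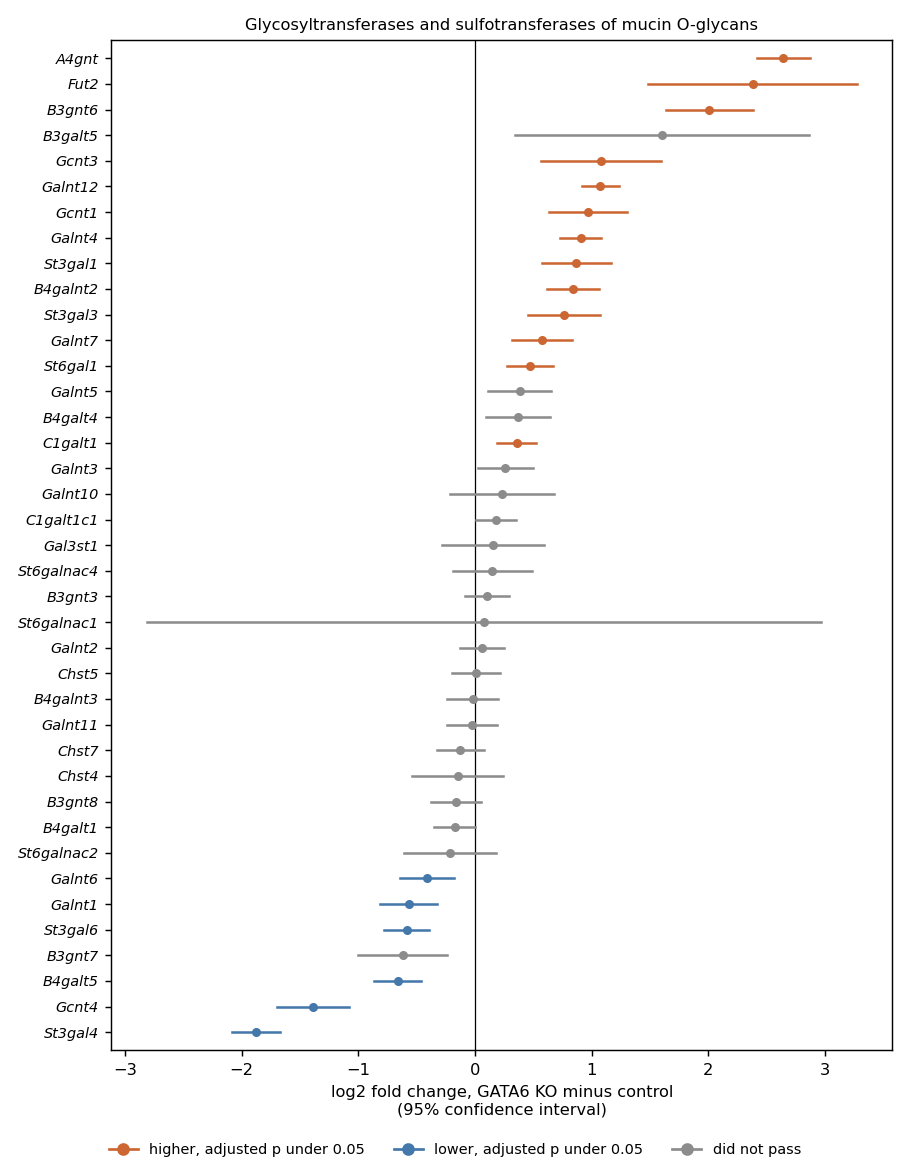
Log2 fold change (GATA6 KO minus control, horizontal axis) with its 95% confidence interval for 39 genes listed for mucin O-glycosylation. Orange genes (13) were higher and blue genes (6) lower at an adjusted p under 0.05; the interval of St6galnac1 is wide, with control replicate 1 at 1.15.

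Of 12 genes listed for partners of membrane mucins, 1 rose and 2 fell, while 9 did not pass. Hgf, the growth factor that Met binds, is among the 9. The shares over all genes tested were 4.99% higher and 3.25% lower. The median log2 fold change of the list was -0.01. Lgals3, a galectin that binds mucin sugars, rose by 0.75 (SE 0.14). The scaffold proteins of the brush border Pdzk1 and Slc9a3r1 fell by 2.99 (SE 0.40) and 0.53 (SE 0.09). The receptors Erbb2 and Met, named above with Muc4 and Muc20, differed by 0.32 (SE 0.12) and 0.15 (SE 0.08) and did not pass (limma adjusted p = 0.160 and 0.311). Lgals3 lost its call without any 1 array other than GATA6 KO replicate 1 (0.0542 to 0.0923), and Slc9a3r1 without control replicate 3 (0.0576) or GATA6 KO replicates 1 (0.0554) or 2 (0.074). Leaving out control replicate 3, or GATA6 KO replicate 2, left 1 call in the list.

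Markers of other cells and regions were read beside these results, by the same test that called 4.99% of all genes higher and 3.25% lower. Enterocyte markers were lower: 10 of 15 fell and 0 rose, and the mean log2 signal of the list lay between 7.89 and 8.36 in the controls and between 6.51 and 6.99 in the KO-labelled arrays. The disaccharidase Mgam and the peptide transporter Slc15a1 fell by 1.80 (SE 0.10) and 2.08 (SE 0.15). Of 8 Paneth cell markers 7 fell, Defa39 and Mmp7 with the smallest p, at -3.79 and -2.65 (SE 0.18 and 0.15). Their mean ran from 7.78 to 8.14 in the controls and from 5.48 to 6.19 in the KO-labelled arrays. Nupr1, the remaining Paneth cell marker, lay above 0 at 0.59 (SE 0.15) and did not pass (limma adjusted p = 0.0637). Colon markers were higher in 5 of 11, and 6 did not pass. List means were 5.91 to 7.05 in the controls, highest in control replicate 1, and 7.79 to 8.36 with the KO label. Sult1c2 and Ggh rose by 3.36 (SE 0.18) and 1.32 (SE 0.08). Car4 differed by 0.03 (SE 0.27) and Aqp4, the only one below 0, by -0.71 (SE 0.26), and neither passed. Tuft cell markers were mixed: of 10, 3 rose and 0 fell, and the other 7 stayed above the threshold. Their means were 3.64 to 3.91 in the controls and 3.90 to 4.10 with the KO label. Alox5 and Dclk1 rose by 0.87 (SE 0.11) and 0.88 (SE 0.13). Among the 7, Gfi1b, Cd24a, Il25 and Chat lay below 0, at -0.27, -0.30, -0.26 and -0.22. Trpm5, Sh2d6 and Pou2f3 lay above 0, at 0.39, 0.30 and 0.03.

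List means of 10 smooth muscle markers lay between 7.55 and 7.75 in the controls and between 7.74 and 8.09 with the KO label. Their median log2 fold change was 0.34, and 8 of them had an unadjusted limma p under 0.05, against 24.7% of all genes. After adjustment 1 passed, Tagln, which rose by 0.46 (SE 0.10). That call was lost without control replicates 1 or 3 or GATA6 KO replicates 2 or 3 (limma adjusted p from 0.110 to 0.142), and Acta2, at 0.33 (SE 0.09), did not pass. No lymphoid marker passed among 11 by limma, and 1 had an unadjusted p under 0.05, against 24.7% of all genes; Cd3g and Cd79a, with the smallest p, differed by 0.23 and -0.40. Of 13 markers of gastric mucous cells 10, Muc5ac and Muc6 among them, lay below the median on all 6 arrays, and A4gnt was the one that rose. The part that these shifts in other cell types have in the values of Muc2, Muc4 and the goblet lists was not tested.

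**Figure D5:**
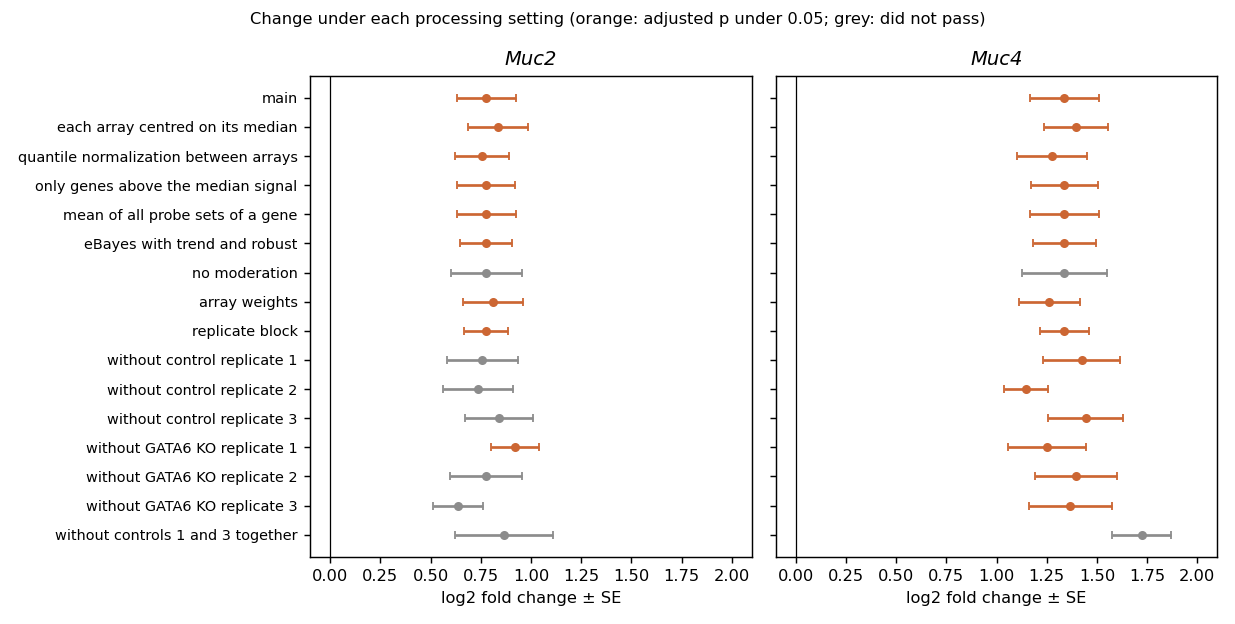
Log2 fold change of Muc2 (left) and Muc4 (right) with its SE (horizontal axes) under the setting used in the text (main) and 15 others (rows); orange marks an adjusted p under 0.05. All values lie above 0, from 0.64 to 0.92 for Muc2 and from 1.15 to 1.72 for Muc4, and Muc2 is grey in 5 of the 6 rows that leave out 1 array.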

How the data were processed

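Values are log2 signals per probe set as the authors deposited them; the submitters' processing notes name Expression Console, without a version. The sources used here do not give its background correction, normalization or summary method, and the log2 scale is read from the values. Of 35557 probe sets, 21789 had 1 gene symbol, 1621 several and 12147 none in the probe table, and only the first kind was used. Where a gene had more than 1 probe set (999 genes), the brightest stood for it. No array was rescaled. Groups were compared with limma 3.58.1 (R 4.3.3; lmFit, eBayes), two-sided and adjusted over 19938 genes, with moderated SEs. Simulated arrays of these genes had independent normal noise at the moderated variances, with few genes changed. On them limma recovered 46.6% of changes of 0.5 and 97.3% of changes of 1 (log2), with 5.45% of calls false. No simulated array differed from its group as control replicates 1 and 3 did, so 5.45% is not the false share of the calls reported here. Members and lists were chosen with earlier results of these data known. Named were all members and other mucins, up to 4 called genes of each pathway list by p, 2 of each marker list, 3 genes most like each member, and neighbours; other list genes were named after their values were seen. Alternatives covered scaling, a filter on dim genes, probe sets, moderation, array weights, a replicate block and leaving out arrays. Exact tests used scipy 1.17.1. P-values measure the spread between 3 mice a group.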

Additional observations from a re-analysis of the deposited data

How the results depend on the processing

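Quantile normalization, median centring, the mean over probe sets, trended and robust moderation and array weights kept the direction and call of all 5 mucin genes; the filter on dim genes gave no value for Muc1 and Muc20. Genes called numbered 1643; they were 274 without moderation, 597 to 1403 with 1 array left out and 36 with control replicates 1 and 3 both left out. That last choice was made after seeing the data, and it assumes that the remaining control varies like the other arrays. Without moderation Muc2 (0.777) and Muc4 (1.338) did not pass (adjusted p = 0.13 and 0.0801 in the linear model), and the goblet granule, lineage, glycosylation and partner lists had 2, 1, 6 and 0 calls. Without control replicates 1 and 3 these lists had 2, 0, 3 and 0 calls, Muc2 (0.864) and Muc4 (1.722) did not pass, and Muc1 turned to 0.343. With 1 array left out the lists had 7 to 11, 3 to 4, 10 to 19 and 1 to 2 calls. Muc2 then ran from 0.637 to 0.921 and Muc1 from -0.336 to 0.039. The lineage list had 8 calls with arrays centred or dim genes removed. Some genes that never passed and differed by little with all arrays turned sign. With 1 array left out Emcn ran from -0.043 to 0.108, Muc15 from -0.026 to 0.176, Muc3 from -0.012 to 0.084 and Mucl2 from -0.07 to 0.128. St6galnac1, which read 1.15 in control replicate 1, ran far more widely, from -1.534 to 1.183. Without control replicates 1 and 3 Emcn was -0.004, Muc19 0 and St6galnac1 -0.935. With array weights Muc15 was -0.002 and Mucl2 -0.001, and with probe sets averaged Muc19 was -0.058. The cause was not tested. With the replicate number as a block 1241 genes were called, Muc2 (adjusted p = 0.0197 by limma) and Muc4 (0.00614) passed, and no member's call changed. Deviations of same-numbered arrays correlated at 0.043, -0.04 and 0.153, and not every array correlated best with its own number, so the numbers are not taken as a pairing. Dim signal limits what can be said of Muc1 and Muc20.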
